A study of Homo sapiens with 12 samples.

Results

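The DNA replication and S phase genes are 42 genes whose products license replication origins, unwind and copy DNA, supply nucleotides and histones, and carry cells from G1 into S phase. They were selected by symbol, and all 42 were found among the 18950 genes of the deposited table. RNA had been sequenced from DU145 and PC3, lines long established from human prostate cancer, and the labels give 4 groups of 3 libraries: DU145 GFP+, DU145 GFP-, PC3 GFP+ and PC3 GFP-. GFP+ cells were the brightest 10% for green fluorescent protein, in which the labels call Wnt/β-catenin signaling active, and GFP- cells were the dimmest 10%, in which they call it inactive. All 4 groups grew in DMEM with 10% FBS and no group carries another agent in the labels. The labels do not describe the reporter construct behind the GFP or say whether each line was a clone or a pool. They also do not say that a group's 3 libraries are separate cultures or separate sorts, so a p-value here reflects only how these samples vary, and that variation may be technical.

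In G1 the origin recognition complex, CDC6 and CDT1 load the MCM helicase onto origins, and in S phase CDC45 and the GINS complex switch the loaded helicase on. Polymerase alpha with its primase then starts each new strand, and polymerases delta and epsilon extend it with PCNA, a sliding clamp that the RFC complex loads. Many of these genes are transcribed in a wave at the boundary of G1 and S by E2F factors, which the RB protein restrains until cyclin-dependent kinases, cyclin E kinase among them, inactivate it.

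E2F sites near the start of transcription are the regulatory feature that this gene set is best known for. Promoters are therefore shown for 6 members that fell in DU145 GFP+ cells (CDT1, POLA2, POLE, TYMS, E2F1 and CDC45) and the 2 that rose (PCNA and RFC4). Some hold an E2F octamer of those listed below and some do not. Other forms of the E2F site were not searched for, so a promoter without a listed octamer may still hold one. Each is the 150 bases before the RefSeq start, the first listed where there are several, in GRCh38.p14, written 5′ to 3′ on the strand of the gene. Capitals mark the E2F octamers TTTCCCGC, TTTCGCGC, TTTGCCGC and TTTGGCGC and the box CCAAT, each on either strand. In POLE, copies of the box on both strands overlap.
CDT1: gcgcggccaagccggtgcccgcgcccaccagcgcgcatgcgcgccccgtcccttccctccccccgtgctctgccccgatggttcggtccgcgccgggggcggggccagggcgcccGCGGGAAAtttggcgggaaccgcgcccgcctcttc
POLA2: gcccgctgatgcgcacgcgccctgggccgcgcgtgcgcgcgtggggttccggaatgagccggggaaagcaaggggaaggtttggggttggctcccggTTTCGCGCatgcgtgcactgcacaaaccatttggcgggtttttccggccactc
POLE: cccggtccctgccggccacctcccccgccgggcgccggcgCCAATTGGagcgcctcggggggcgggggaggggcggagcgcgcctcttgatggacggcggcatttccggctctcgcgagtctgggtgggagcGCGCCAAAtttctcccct
TYMS: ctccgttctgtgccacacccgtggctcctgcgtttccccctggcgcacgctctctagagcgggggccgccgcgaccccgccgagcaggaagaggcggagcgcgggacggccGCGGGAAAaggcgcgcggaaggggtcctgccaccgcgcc
E2F1: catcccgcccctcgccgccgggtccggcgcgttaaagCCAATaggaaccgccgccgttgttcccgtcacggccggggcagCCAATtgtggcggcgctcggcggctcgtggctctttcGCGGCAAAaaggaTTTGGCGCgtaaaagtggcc
CDC45: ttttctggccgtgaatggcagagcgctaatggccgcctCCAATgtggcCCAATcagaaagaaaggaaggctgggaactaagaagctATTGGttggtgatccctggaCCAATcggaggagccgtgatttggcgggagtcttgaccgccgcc
PCNA: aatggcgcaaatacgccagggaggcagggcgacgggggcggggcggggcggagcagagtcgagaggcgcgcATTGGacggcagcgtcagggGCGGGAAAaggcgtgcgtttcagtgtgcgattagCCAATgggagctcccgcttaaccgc
RFC4: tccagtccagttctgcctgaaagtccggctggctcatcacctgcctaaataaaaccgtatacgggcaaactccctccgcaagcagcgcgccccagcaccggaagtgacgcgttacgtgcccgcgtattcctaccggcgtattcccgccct
The windows lie at chr16:88803639-88803788 (CDT1, plus strand), chr11:65261812-65261961 (POLA2, plus strand), chr12:132687343-132687492 (POLE, minus strand), chr18:657503-657652 (TYMS, plus strand), chr20:33686386-33686535 (E2F1, minus strand), chr22:19479770-19479919 (CDC45, plus strand), chr20:5126623-5126772 (PCNA, minus strand) and chr3:186806483-186806632 (RFC4, minus strand). CDT1, POLA2, TYMS, POLE and E2F1 each hold at least 1 E2F octamer, as does PCNA, which rose. CDC45, which fell, holds CCAAT but no E2F octamer, and the RFC4 window holds neither motif. Over the 250 bases before the start, 15 of the 37 members with a RefSeq promoter entry (40.5%) held an E2F octamer on either strand, against 5.71% of the 9659 tested genes with an entry. CCAAT was present in 22 of the 37 (59.5%, against 41.9% of tested genes), and CTTTGA, the core of the site bound by the TCF/LEF partners of β-catenin, in 1 of the 37 (2.7%, against 10.4%), the clamp gene PCNA. Of the 9 members with an entry that fell in DU145 GFP+ cells, 6 held an E2F octamer (MCM7 is the one not shown) and CDC45, RRM2 and TK1 held none. RRM2 and TK1 are not shown either, so the fallen members shown hold an octamer more often than the 9 do. Of the other 28 members with an entry, 9 held one. These are matches of letters in a window, given as a description.

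The total estimated count per library ranged from 13453614 to 21528810. Levels are given as CPM, computed by undoing the log2 of the deposited values. This CPM is a count divided by a scaled total of its library, not by the library's own total. In DU145 the scaled total was below the estimated total in all GFP- libraries, and above it in GFP+ replicates 1 and 2. All 42 members passed the minimum of 1 CPM in at least 3 libraries, as did 12527 genes in all. The epithelial genes KRT18 and, in DU145, KRT8 were well expressed, but EPCAM and CDH1, which define epithelial cells, averaged at most 0.107 and 0.381 CPM in any group of either line, at or near what a few counts give, and KRT8 averaged 18.1 and 26.1 CPM in PC3 GFP+ and GFP- cells. The lines are therefore called by their labels alone. Leukocyte markers summed to 0.129 to 0.922 CPM per library and endothelial and fibroblast markers to 0.934 to 2.37 CPM, at or near 0. Among the DU145 GFP+ libraries, replicate 3 stood apart from replicates 1 and 2 in base composition. When genes were cut into 5 equal bins by GC content, the bin of lowest GC content had a median of 0.53 and 0.29 on the log2 scale relative to the DU145 mean in replicates 1 and 2, and -0.06 in replicate 3. A PC3 library stood apart as well. Relative to the PC3 mean, that bin was at -0.29 in GFP- replicate 2, and at 0.10 and 0.22 in GFP- replicates 1 and 3.

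The study asked how cells with active Wnt signaling differ from cells without it. Of these 42 genes, most of those that passed the test in DU145 were lower in GFP+ cells, and few passed in PC3. In DU145, 13 of the 42 members passed the test (limma, adjusted p under 0.05), 11 of which fell in GFP+ cells and 2 of which rose, beside 27.1% of all genes tested. In PC3, 2 rose and none fell in limma or voom, and 7 had an unadjusted p under 0.05. Across all genes tested, 13.9% fell and 13.1% rose in DU145 and 5.27% fell and 4.17% rose in PC3. The falling share of the members in DU145, 26.2%, was thus above the background, the rising share, 4.76%, was below it, and in PC3 the called share of 4.76% was below the 9.44% of all genes. The median log2 fold change of the members, GFP+ over GFP-, was -0.17 in DU145 (-0.01 over all genes) and 0.09 in PC3 (-0.02 over all genes). Over the scalings tried, the median of the members stayed negative in DU145 (-0.26 with equal library medians to -0.06 with quantile normalization) and positive in PC3. Over all genes the DU145 medians under those scalings were -0.10 and -0.04, so with quantile normalization the members lay little below all genes. Scaling by each library's own total was not among the scalings tried. It would raise every DU145 estimate, those of all genes alike, so the sign of the members' median under it was not tested. In the deposited values signs split as the medians did, with 32 of 42 members negative in DU145 and 36 of 42 positive in PC3. Changes were small, at most 1.43-fold in DU145 and 1.24-fold in PC3, and no member reached 1.5-fold in either line. In sorted bulk samples, fewer cells in S phase and less RNA per cell cannot be told apart.

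**Figure D1:**
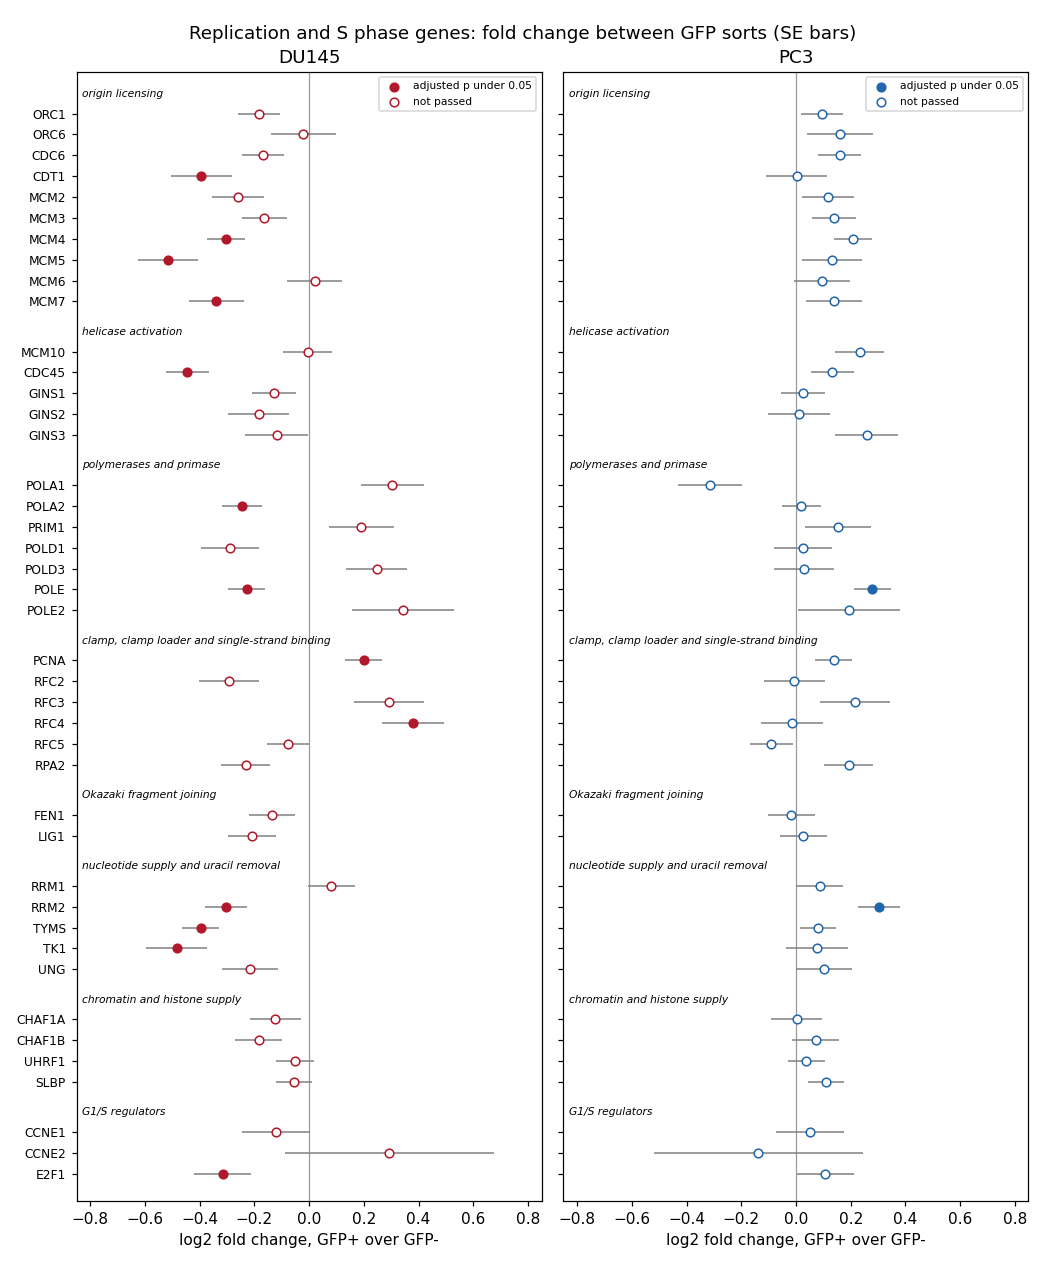
Log2 fold change of each of the 42 genes, GFP+ over GFP-, with its standard error, in DU145 (left) and PC3 (right), grouped by role. Filled points have a limma adjusted p under 0.05. In DU145 most points lie left of 0 with 11 filled there, and in PC3 most lie right of 0 with POLE and RRM2 filled.

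Origin licensing genes carried the most falls in DU145: 4 of 10 fell, none rose, and 9 of 10 had a negative estimate. MCM5 (chr22:35400063-35425430, GRCh38), a subunit of the helicase, had 371, 347 and 430 CPM in the GFP+ libraries and 572, 488 and 581 CPM in the GFP- libraries. The groups did not overlap, and the change was the largest of any member in this line (log2 fold change -0.52 ± 0.11 SE, n = 3 each, limma adjusted p = 0.00761). MCM4, another subunit, had 460, 508 and 446 CPM in GFP+ and 578, 586 and 579 CPM in GFP- libraries, which again did not overlap (-0.30 ± 0.07, limma adjusted p = 0.0102). CDT1 (chr16:88803213-88809258), the loading factor that geminin inhibits, had 188, 199 and 228 CPM in GFP+ and 260, 246 and 300 CPM in GFP- libraries, and the highest GFP+ library stayed under the lowest GFP- one (-0.39 ± 0.11, limma adjusted p = 0.0234). MCM7 also fell, by 0.34 ± 0.10 (limma adjusted p = 0.0294). MCM6, part of the same complex, averaged 161 ± 19.3 CPM in GFP+ and 159 ± 14.4 CPM in GFP- cells (SD, n = 3 each), with overlapping libraries and an adjusted p of 0.894. ORC1 and CDC6 had no overlap between sorts, at 52.8 ± 0.511 against 59.9 ± 1.38 CPM and 98.1 ± 5.23 against 110 ± 6.58 CPM, GFP+ before GFP-, but did not pass (limma adjusted p = 0.0855 and 0.112).

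Nucleotide supply held the smallest p of any member in DU145. TYMS (chr18:657604-673578), thymidylate synthase, which makes dTMP, had 290, 323 and 327 CPM in the GFP+ libraries and 419, 417 and 400 CPM in the GFP- libraries. All 3 GFP+ values lay below every GFP- value (log2 fold change -0.40 ± 0.07, n = 3 each, limma adjusted p = 0.00237). TK1 (chr17:78174075-78187233), the thymidine kinase of the salvage route, had 198, 199 and 255 CPM in GFP+ and 297, 283 and 327 CPM in GFP- libraries (-0.48 ± 0.11, limma adjusted p = 0.0111). RRM2 (chr2:10120698-10131419), the S phase subunit of ribonucleotide reductase, had 413, 467 and 461 CPM in GFP+ and 550, 568 and 536 CPM in GFP- libraries (-0.30 ± 0.08, limma adjusted p = 0.0153). Neither gene's sorts overlapped, although GFP+ replicate 3 was the GFP+ library nearest to the GFP- ones for TK1. RRM1, the partner subunit, did not pass (0.08 ± 0.09) and its sorts overlapped. UNG, which removes uracil from DNA, did not overlap between sorts but did not pass (-0.22 ± 0.10, limma adjusted p = 0.12).

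Of the helicase activators and polymerases in DU145, CDC45, POLA2 and POLE fell. CDC45 (chr22:19479459-19520612), the helicase activator, had 52.6, 55.2 and 59.1 CPM in GFP+ libraries and 76.6, 70.7 and 80.0 CPM in GFP- libraries, with a clear gap between the sorts (log2 fold change -0.45 ± 0.08, limma adjusted p = 0.003). MCM10 and the 3 GINS genes, its partners in activation, did not pass and ranged from -0.18 to -0.0046. POLA2 (chr11:65261762-65305589), the B subunit of polymerase alpha, had 125, 134 and 135 CPM in GFP+ libraries and 165, 148 and 156 CPM in GFP- libraries (-0.25 ± 0.07, limma adjusted p = 0.0268). POLE (chr12:132623753-132687365), the catalytic subunit of the leading-strand polymerase, also fell, by 0.23 ± 0.07 (limma adjusted p = 0.0287). POLA1, the catalytic subunit of polymerase alpha, lay the other way, with 38.4, 43.1 and 31.2 CPM in GFP+ and 31.1, 31.0 and 28.5 CPM in GFP- libraries, and did not pass (0.30 ± 0.12, limma adjusted p = 0.0645). POLE2, PRIM1 and POLD3 were positive (0.19 to 0.34) and POLD1 negative (-0.29), none past the test.

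Both rises in DU145 were in the clamp and its loader. PCNA (chr20:5114953-5126626) had 298, 287 and 274 CPM in GFP+ libraries and 253, 259 and 236 CPM in GFP- libraries, which did not overlap (log2 fold change 0.20 ± 0.07, limma adjusted p = 0.0425). RFC4 (chr3:186789880-186807058), a loader subunit, had 40.8, 41.1 and 35.2 CPM in GFP+ libraries and 28.3, 34.1 and 27.8 CPM in GFP- libraries (0.38 ± 0.11, limma adjusted p = 0.0273). Its lowest GFP+ library was only just above its highest GFP- library. The loader subunits RFC2 (-0.29 ± 0.11) and RFC3 (0.29 ± 0.13) pointed opposite ways without passing, and the single-strand binding subunit RPA2 did not pass (-0.23 ± 0.09, limma adjusted p = 0.0677). FEN1 and LIG1, which trim and seal Okazaki fragments, were at -0.14 ± 0.09 and -0.21 ± 0.09 and did not pass. The 4 chromatin genes, CHAF1A and CHAF1B of the histone chaperone CAF-1, UHRF1 and the histone mRNA binder SLBP, stayed between -0.18 and -0.05, all short of the test.

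Among the G1/S regulators, E2F1 (chr20:33675683-33686404), the transcription factor itself, fell in DU145 GFP+ cells. It had 176, 177 and 215 CPM in GFP+ libraries and 243, 219 and 242 CPM in GFP- libraries (log2 fold change -0.32 ± 0.10, limma adjusted p = 0.0401), and GFP+ replicate 3 came within a few CPM of the lowest GFP- library. CCNE1 (-0.12 ± 0.12) and CCNE2 (0.29 ± 0.38), which encode the cyclins E, did not pass. Groups were fully apart for 16 members with GFP+ below and 3 with GFP+ above, where 22.6% and 17.9% of all tested genes were apart in those directions, and they overlapped for 23. The DU145 count depended on single libraries, and so did the share of all genes called: 4 members passed without GFP+ replicate 1 (7.15% of all genes), 5 without GFP+ replicate 2 (8.51%), GFP- replicate 1 (10.6%) or GFP- replicate 3 (7.71%), 23 without GFP+ replicate 3 (44.7%), and none in limma, with 5 at an unadjusted p under 0.05, without GFP+ replicates 1 and 2 together (1.36%). Quantile normalization left 1 member higher and 4 lower (9.21% and 8.77% of all genes) and shrank the changes of MCM4, RRM2 and POLE to -0.08, -0.09 and -0.04.

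Base composition moved with the DU145 sorts. Over the 12510 tested genes with an annotated transcript, the DU145 log2 fold change and GC content had a Spearman correlation of -0.64 across genes, and over the 42 members -0.736, both as descriptions of genes that share libraries. In PC3 the same values were -0.105 and -0.134. The bin of lowest GC content had a median DU145 log2 fold change of 0.51 over all genes, and the bin of highest GC content -0.26. The members that fell had a median GC content of 56.4%, the 10 members with a positive DU145 estimate 43.0%, and all tested genes 48.9%. PCNA and RFC4, the members that rose, lay at 45.2% and 45.4%, and MCM6, RRM1 and POLA1 near 43%. In each of the 5 bins the median of the members was below that of all genes: 0.29 against 0.51 in the lowest bin, 0.02 against 0.20, -0.18 against -0.05, -0.23 against -0.22, and -0.35 against -0.26 in the highest, with 3, 13, 11, 11 and 4 members.

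As an alternative, each library's trend with GC content and length was removed. Then 11 members passed in DU145, 2 higher and 9 lower, beside 7.01% higher and 13.6% lower of all genes. TYMS, CDC45, MCM4, MCM5, RRM2 and TK1 kept their falls, at -0.42 to -0.23, and PCNA and RFC4 their rises. CDT1, POLA2, POLE, MCM7 and E2F1 no longer passed (-0.13 to -0.06, limma adjusted p = 0.0788 to 0.445). The estimates of 12 members changed sign, none of them called. POLA1, PRIM1, POLD3, RFC3, MCM6, RRM1 and CCNE2 turned negative (-0.23 to -0.0091). FEN1, CHAF1A, UHRF1, SLBP and CCNE1 turned positive (0.02 to 0.08), which left 8 members positive. CDC6, MCM10 and GINS1 passed in DU145 with the trend removed, with or without the replicate block, and in none of the other alternatives run (-0.35, -0.28 and -0.43). The scaling mattered for the split as well: with the medians of all libraries set equal, 16 members passed and all 16 were lower (18.4% of all genes were lower and 10.5% higher), and neither PCNA nor RFC4 passed (0.11 and 0.29, limma adjusted p = 0.329 and 0.0556).

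**Figure D2:**
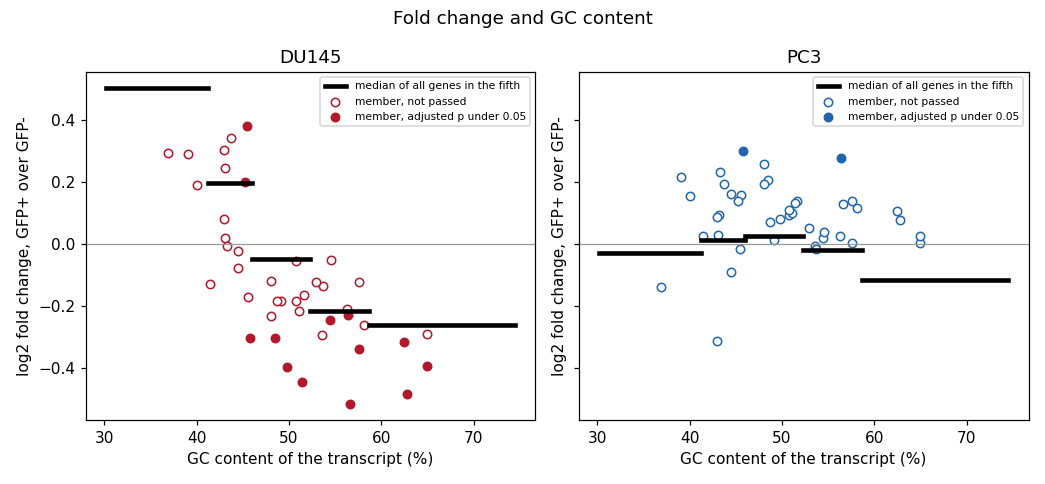
Log2 fold change of the 42 genes, GFP+ over GFP-, against the GC content of the transcript (%), in DU145 (left) and PC3 (right). Black bars are the medians of all tested genes in 5 bins of GC content. In DU145 the bars step down from 0.51 to -0.26 and the genes step down with them. In PC3 the bars stay between -0.12 and 0.03 and most genes lie above them.

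In PC3 the members leaned the other way with smaller steps, and POLE and RRM2 rose. POLE had 277, 261 and 238 CPM in GFP+ libraries and 214, 213 and 211 CPM in GFP- libraries, a full gap between sorts (log2 fold change 0.28 ± 0.07, n = 3 each, limma adjusted p = 0.0202). RRM2 had 396, 415 and 347 CPM in GFP+ libraries and 325, 311 and 301 CPM in GFP- libraries (0.30 ± 0.08, limma adjusted p = 0.025). In both genes GFP+ replicate 3 was the lowest GFP+ library. MCM4 had 383, 420 and 375 CPM in GFP+ libraries and 341, 328 and 349 CPM in GFP- libraries, apart as well, but did not pass (0.21 ± 0.07, limma adjusted p = 0.0764). POLA1 had the most negative of the 6 estimates below 0, with 44.7, 43.2 and 44.8 CPM in GFP+ libraries and 58.4, 49.0 and 57.9 CPM in GFP- libraries (-0.31 ± 0.12, limma adjusted p = 0.115).

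None of the 10 licensing genes passed in PC3, yet all 10 estimates were positive, from 0.0023 (CDT1) to 0.21 (MCM4), and so were all 5 helicase activation genes, from 0.01 (GINS2) to 0.26 (GINS3). All 5 nucleotide supply genes were positive too (0.08 to 0.30), as were all 4 chromatin genes (0.0031 to 0.11). TYMS, the clearest fall in DU145, had 413, 414 and 395 CPM in PC3 GFP+ libraries and 391, 402 and 364 CPM in PC3 GFP- libraries, which overlapped (0.08 ± 0.07, limma adjusted p = 0.54). The sorts were fully apart for 12 members with GFP+ above and 2 with GFP+ below, beside 14% and 16.4% of all genes, and overlapped for 28. Both PC3 calls were lost in limma without GFP+ replicate 1 or 2 (adjusted p = 0.0746 to 0.118, up to 0.348 over all alternatives), and leaving out any single GFP- library lost 1 of them. With the GC and length trend removed, 8 members passed in PC3, 7 higher (TK1, POLE, PCNA, E2F1, RRM2, MCM4 and RPA2) and 1 lower (POLA1), beside 8.88% and 9.6% of all genes.

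Whether the sort effect differed between lines was tested directly, as the DU145 log2 fold change minus that of PC3. For 10 of the 42 members (23.8%) it did, against 15.9% of all genes tested. The difference was negative in 9 members (8.82% of all genes) and positive in POLA1 alone (7.06%). The median over the members was -0.25, and 0.05 over all genes. RRM2 had the smallest p: its fall in DU145 and its rise in PC3 gave a difference of -0.61 ± 0.11 (limma adjusted p = 0.00303). MCM4 (-0.51 ± 0.10, limma adjusted p = 0.00405), POLE (-0.51 ± 0.10, 0.00408), CDC45 (-0.58 ± 0.11, 0.00416) and TYMS (-0.48 ± 0.09, 0.00526) followed. MCM5 showed the largest (-0.65 ± 0.15, limma adjusted p = 0.0144), and TK1 (-0.56 ± 0.16, 0.0311), RPA2 (-0.42 ± 0.13, 0.0381) and MCM7 (-0.48 ± 0.14, 0.0405) passed as well. POLA1, above GFP- in DU145 and below it in PC3, gave 0.62 ± 0.16 (limma adjusted p = 0.0232). With the GC and length trend removed, the DU145 estimate of POLA1 was -0.02 ± 0.08 and the difference 0.33 ± 0.11 (limma adjusted p = 0.0456), and with the replicate block added to that fit the difference no longer passed (limma adjusted p = 0.059), so the opposite order in the lines did not hold there.

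The licensing group held 3 of these differences and all 10 of its estimates were negative. Nucleotide supply held 3 of 5, polymerases 2 of 7 with opposite signs, helicase activation 1 of 5 and the clamp group 1 of 6. Okazaki joining, chromatin and G1/S genes held none. Estimates were negative in DU145 and positive in PC3 for 29 members, positive in both for 7, negative in both for 3 and positive only in DU145 for 3. CDC6, MCM4, CDC45, POLE, RPA2 and RRM2 had GFP+ libraries entirely below GFP- in DU145 and entirely above in PC3. Of all genes, 22.6% lay entirely below in DU145 and 14% entirely above in PC3, and 49.4% and 46.4% had positive estimates. The shares of all genes with these joint patterns were not counted, so the member counts stand without a background. The differences of RRM2, POLE and TYMS passed in all 24 alternatives, with limma adjusted p-values up to 0.0296, 0.0453 and 0.049. Those of MCM7 and RPA2 were lost in 12 of the 24, and those of POLA1 and TK1 in 9. The count was 14 with the GC and length trend removed, 1 higher and 13 lower (9.35% and 13.8% of all genes). It was 18 without DU145 GFP+ replicate 3 (29.2% of all genes), 17 without PC3 GFP- replicate 2 (26.8%), and 6 when any 1 of 7 other libraries was left out: DU145 GFP+ replicates 1 and 2, DU145 GFP- replicate 3, PC3 GFP+ replicates 1 and 2, and PC3 GFP- replicates 1 and 3.

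**Figure D3:**
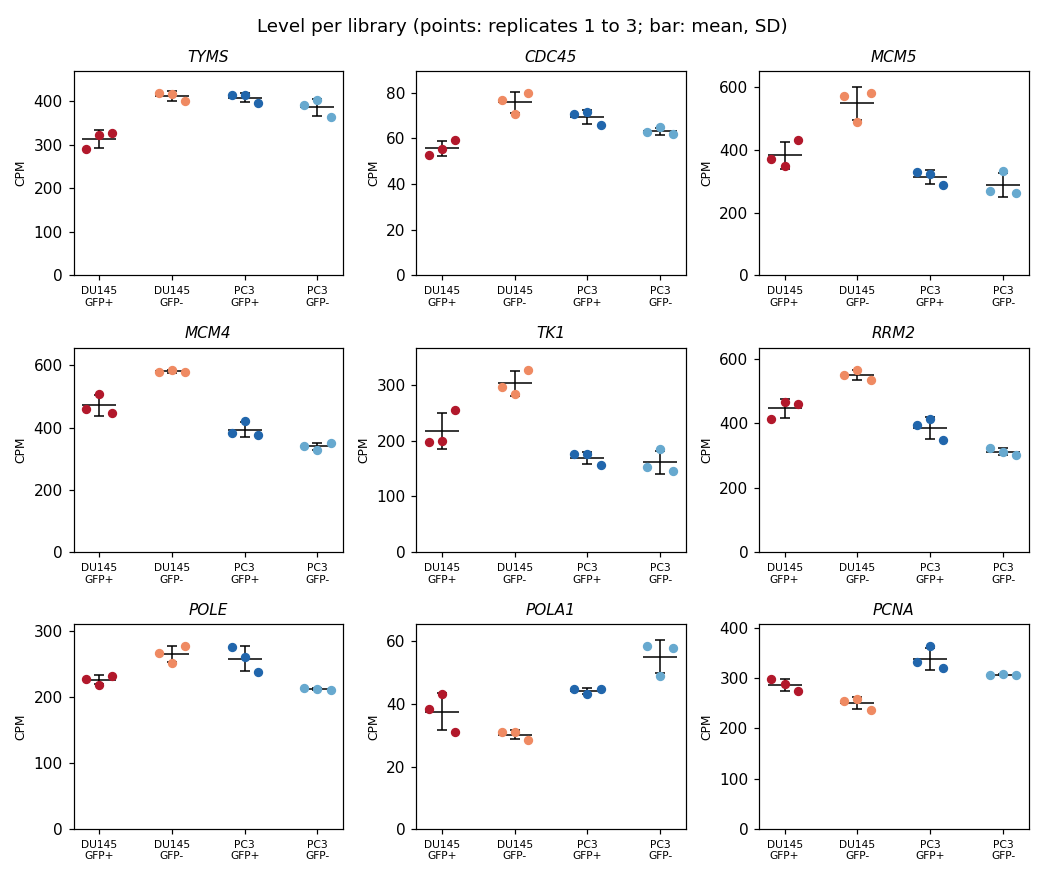
Level (CPM) of 9 genes in each of the 12 libraries, with points for replicates 1 to 3 and bars for the mean and SD of each group. TYMS, CDC45, MCM5, MCM4, TK1, RRM2 and POLE are lower in DU145 GFP+ than in DU145 GFP-. RRM2 and POLE are higher in PC3 GFP+ than in PC3 GFP-, while PCNA has GFP+ above GFP- in both lines and POLA1 has opposite order in the lines.

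Over each library, the 42 genes summed to 6635 ± 298 CPM in DU145 GFP+ and 7737 ± 223 CPM in DU145 GFP- (SD, n = 3 each), and to 6099 ± 305 CPM in PC3 GFP+ and 5649 ± 244 CPM in PC3 GFP-. These sums are on the deposited scale and are not shares of a library's total. Relative to such shares, the scaling raised the sum in all DU145 GFP- libraries. In DU145, 10, 17 and 17 members lay above the line's mean in the GFP+ libraries, and 33, 30 and 26 in the GFP- libraries. In PC3 the counts were 35, 37 and 12 in GFP+ and 11, 20 and 8 in GFP-. PC3 GFP+ replicate 3 was thus nearer to the GFP- libraries than to its own group by this count. In DU145 the markers KRT8, KRT18, VIM, CDH1, CDH2 and EPCAM, led by the keratins and vimentin, summed to 4329 ± 443 CPM in GFP+ and 6209 ± 298 CPM in GFP- cells, while CDH2 went the other way, at 5.85 ± 1.47 CPM in GFP+ and 1.10 ± 0.448 CPM in GFP- cells (a log2 difference of 2.46 ± 0.25, adjusted p = 5.09e-05 in limma). The total estimated count was lower in GFP+ (13453614 to 16320733) than in GFP- libraries (16583512 to 18463611). The part of these in the result was not tested.

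**Figure D4:**
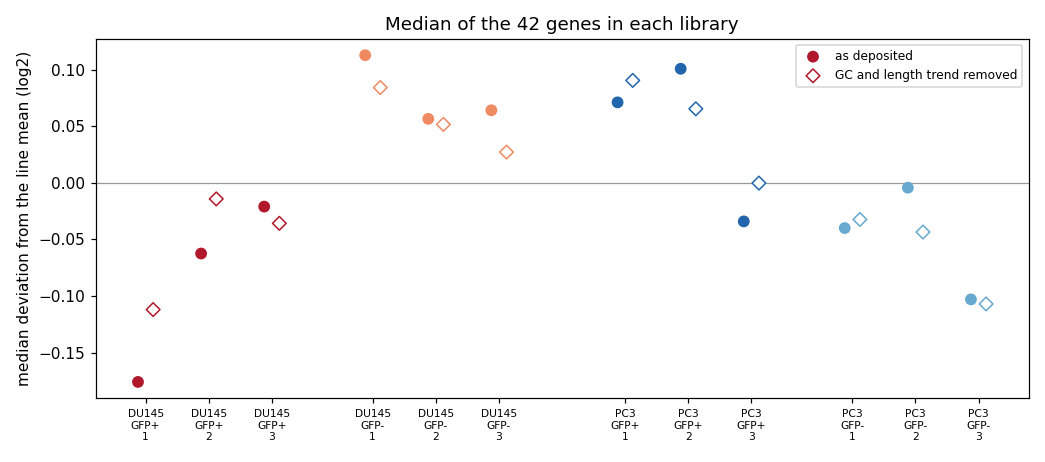
Median over the 42 genes of each library's deviation from its line's mean (log2), as deposited (circles) and with the GC and length trend removed (diamonds). All DU145 GFP+ medians lie below 0 and all DU145 GFP- medians above. In PC3, GFP+ replicates 1 and 2 lie above 0 and the GFP- libraries below.

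Between the lines, taken as the mean of both sorts, 30 of 42 members differed (71.4%, against 77.5% of all genes), 18 higher in DU145 (38.3% of all genes were) and 12 lower (39.2%). This share is near the background. All 6 DU145 libraries lay above all 6 PC3 libraries for 13 members and below them for 6, beside 25% and 21.8% of all genes. E2F1 had a lowest, median and highest library of 176, 217 and 243 CPM in DU145 and 85.8, 103 and 111 CPM in PC3, without overlap (log2 fold change, DU145 over PC3, 1.06 ± 0.07, n = 6 each, limma adjusted p = 1.76e-08). POLD1, the catalytic subunit of polymerase delta, had 216, 261 and 303 CPM in DU145 and 110, 120 and 140 CPM in PC3 (1.05 ± 0.08, limma adjusted p = 2.57e-08). POLA2 gave the smallest p, with 125, 141 and 165 CPM in DU145 and 72.5, 77.8 and 79.7 CPM in PC3 (0.90 ± 0.05, limma adjusted p = 2.35e-09).

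FEN1 and LIG1, both of the Okazaki joining genes, were higher in DU145. FEN1 had 215, 257 and 278 CPM in DU145 against 137, 141 and 160 CPM in PC3 (0.82 ± 0.06, limma adjusted p = 3.49e-08), and LIG1 gave 0.79 ± 0.06 (6.34e-08). MCM2 was the licensing gene that differed most, at 393, 445 and 523 CPM in DU145 and 215, 254 and 271 CPM in PC3 (0.86 ± 0.07, limma adjusted p = 5.55e-08). The cyclin E genes differed in opposite directions. CCNE1 had 34.4, 41.2 and 46.0 CPM in DU145 and 16.3, 18.5 and 20.4 CPM in PC3 (1.11 ± 0.09, limma adjusted p = 6.62e-08), whereas CCNE2 had 2.66, 3.98 and 8.49 CPM in DU145 and 11.4, 13.2 and 19.5 CPM in PC3 (-1.71 ± 0.27, limma adjusted p = 5.66e-05). CCNE2 also had the lowest level and the largest standard errors of the 42.

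All 6 genes of the clamp group differed between lines, RFC2 higher in DU145 and the other 5 lower. RFC5 had 51.1, 57.0 and 61.4 CPM in DU145 and 79.2, 87.3 and 89.6 CPM in PC3, apart in every library (-0.61 ± 0.06, limma adjusted p = 2.71e-07), and ORC1 stood likewise (-0.58 ± 0.05, 3.23e-07). Levels per kilobase used the longest annotated protein-coding transcript, which need not be the one expressed. On that scale TYMS and PCNA were the most abundant members, at 218 and 197 CPM per kb in DU145 and 239 and 237 CPM per kb in PC3. CCNE2 was the least abundant, at 1.41 and 4.27 CPM per kb. The part of transcript choice and GC content in such comparisons between genes was not tested. The 6 MCM helicase genes, whose products form a ring with a copy of each, spanned 3.07-fold in DU145, from 42.8 CPM per kb (MCM6) to 132 CPM per kb (MCM5), and 2.51-fold in PC3, from 41.1 (MCM6) to 103 CPM per kb (MCM7). With equal library medians the split between lines became 24 higher and 7 lower (44.9% and 32.1% of all genes), as that scaling moved the median of all genes to 0.13 from -0.01.

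**Figure D5:**
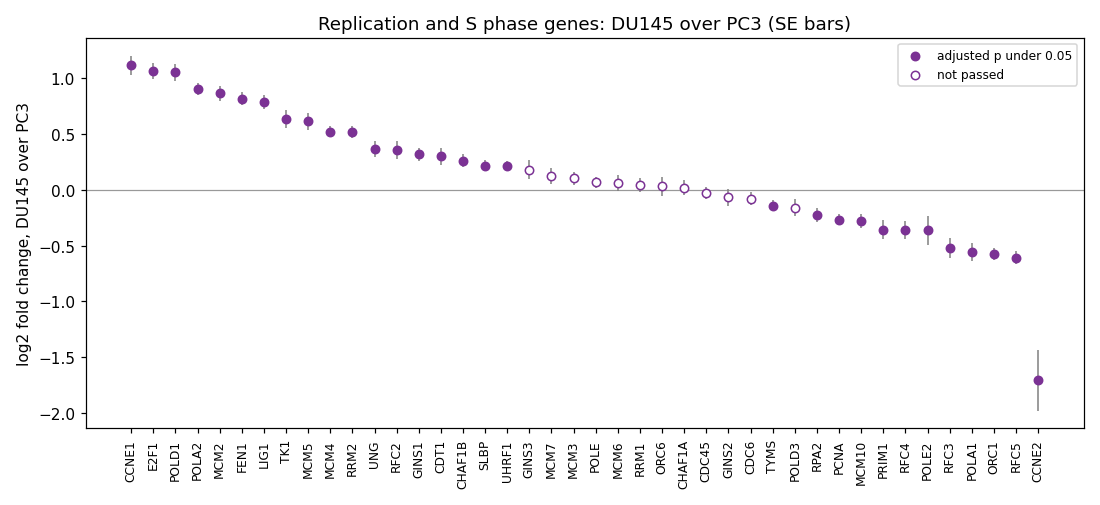
Log2 fold change of the 42 genes between lines, DU145 over PC3, with standard errors, in order of size. Filled points have a limma adjusted p under 0.05. Values run from 1.11 for CCNE1 to -1.71 for CCNE2, with 18 filled points above 0 and 12 below.

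Other genes of the pathway, from lists chosen with earlier results of these data known, did not share one direction. Of 43 other replication factors, 6 rose and 3 fell in DU145 GFP+ cells (median log2 fold change 0.11), and in PC3 1 rose and 1 fell (0.05). The called shares, 20.9% and 4.65%, were below the 27.1% and 9.44% of all genes. In DU145 the kinase gene CDC7, which fires licensed origins, had 18.6, 17.3 and 14.8 CPM in GFP+ libraries and 7.97, 10.4 and 10.6 CPM in GFP- libraries (0.81 ± 0.16, limma adjusted p = 0.00477), and ORC2 rose by 0.55 ± 0.11 (0.00715). POLD2, a polymerase delta subunit, fell by 0.50 ± 0.12 (limma adjusted p = 0.0109), as did the maintenance methyltransferase DNMT1, by 0.25 ± 0.06 (0.0121). In GC content CDC7 and ORC2 stood at 39.1% and 40.1%, and POLD2 and DNMT1 at 59.1% and 55.4%. In PC3 the genes that passed were POLD4, another delta subunit, with 34.4, 37.0 and 33.3 CPM in GFP+ and 76.8, 101 and 73.7 CPM in GFP- libraries (-1.25 ± 0.15, limma adjusted p = 0.00014), and CDC25A, a phosphatase that activates S phase kinases (0.53 ± 0.11, 0.00837).

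Another list held genes of the E2F and RB families, the cyclins D, CDK4, CDK6 and the CDK inhibitors. Of its 23 expressed genes, 3 rose and 2 fell in DU145 and 1 rose in PC3, 21.7% and 4.35% called, again below the background. E2F7, an E2F repressor, rose in DU145 (0.55 ± 0.10, limma adjusted p = 0.00425) and E2F4 fell (-0.41 ± 0.08, 0.0044). Cyclin D2, CCND2, had 31.1, 37.5 and 30.1 CPM in DU145 GFP+ libraries and 5.06, 2.81 and 3.26 CPM in DU145 GFP- libraries, far apart (3.19 ± 0.72, limma adjusted p = 0.0102), while CCND1 rose in PC3 (0.22 ± 0.06, 0.0446). The list of G2 and M phase genes held 23, of which 6 fell and 3 rose in DU145 (39.1% called, against 27.1% of all genes). In PC3, 3 of them passed, all higher (13%, against 9.44% of all genes), and 22 of 23 estimates were positive. The difference between lines passed for 8 of the 23, 7 lower and 1 higher (34.8%, against 15.9% of all genes), with a median of -0.23. The 42 members had 23.8% and a median of -0.25, so this difference was not particular to them. KIF2C, a kinesin that takes microtubules apart in mitosis, had 163, 186 and 186 CPM in GFP+ and 221, 216 and 226 CPM in GFP- libraries of DU145, against 303, 320 and 273 CPM in GFP+ and 235, 240 and 225 CPM in GFP- libraries of PC3. It fell in DU145 and rose in PC3, and the difference between lines passed (-0.66 ± 0.11, limma adjusted p = 0.00148). The condensin gene NCAPD2 did the same (-0.58 ± 0.10, limma adjusted p = 0.00212), and TPX2, a spindle assembly factor, rose in DU145 (0.53 ± 0.07, limma adjusted p = 0.000479).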

How the data were processed

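Total RNA was sequenced in 12 libraries, 3 for each line and sort, and samples were grouped by their labels. The authors deposited 1 table of log2 normalized counts, per the labels. STAR and DESeq2 were used, per the submitters' processing notes. The genome build, annotation and counting step were not given in the sources used here. The lowest values and steps of each column were read as log2 of (count + 0.5) divided by a scaled total, so the deposited log2 values were treated as log2 CPM. Undoing this gave estimated counts, whole within 0.01 for 86.9% of values in the median library. TYMS, UHRF1 and CCNE2 had fractional counts in all libraries. In GENCODE, 17 members overlap a gene on the other strand (TYMS overlaps ENOSF1, RFC4 overlaps EIF4A2), and without stated strand use the reads of such pairs cannot be told apart. CPM values printed include the offset. No sample column was left unused.

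Genes with a log2 value of at least 0 (1 CPM) in at least 3 of 12 libraries were kept. Tests used limma 3.58.1 in R 4.3.3 (lmFit on 4 group means, eBayes with trend, 8 residual degrees of freedom, two-sided), with Benjamini-Hochberg adjustment over all 12527 genes within each contrast and a threshold of 0.05. The fit was run on simulated data in which each gene varied on its own. Such data cannot show how the fit behaves when many genes shift together with GC content, as they did here. The members and all gene lists were chosen with earlier results of these data known. Every member that passed in a sort comparison or in the difference between lines is given its log2 fold change, SE and adjusted p. In PC3, where fewer than 4 passed, the 4 with the smallest p are given these. In the line comparison the 8 with the smallest p that passed are. The member of largest change in DU145 in each role group was also named, as were up to 4 genes per other list by smallest p. Other members are named to account for the list, after their values were seen. GC content, transcript length and positions came from GENCODE 29 (GRCh38), matched by identifier for 18901 genes. The transcript was the longest protein-coding one of a gene, or else its longest. Promoters came from RefSeq (GRCh38.p14). The GC and length trend was removed by loess (span 0.4) on each library's deviation from its line's mean. Libraries of a group differed by 5.46 to 36.2 times the variance of sampling alone, so none was a repeat deposit. In the shallowest library a count of 0 allowed up to 0.233 CPM (3 counts), a limit of counting error alone. Alternatives were equal medians, quantile normalization, no minimum, a minimum of 4, an offset of 8 counts, a replicate block, robust eBayes, each line alone, voom on estimated counts, the GC and length trend removed with and without the block, and leaving out libraries.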

Additional observations from a re-analysis of the deposited data

Results flagged for a closer look

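The sort effect differed between DU145 and PC3 by a test of the difference itself (limma interaction contrast, adjusted p under 0.05) for 10 members. The log2 fold change of DU145 minus that of PC3 was -0.61 for RRM2 (ribonucleotide reductase), -0.51 for MCM4 and -0.65 for MCM5 (helicase subunits), -0.51 for POLE (leading-strand polymerase), -0.58 for CDC45 (helicase activator) and -0.48 for TYMS (thymidylate synthase). It was -0.56 for TK1 (thymidine kinase), -0.48 for MCM7 (helicase subunit) and -0.42 for RPA2 (single-strand binding). POLA1 (polymerase alpha) differed the other way, by 0.62. In all genes tested 15.9% differed between lines.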

How the results depend on the processing

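No member called in a sort comparison or in the difference between lines changed sign under any alternative, but of those not called 16 of 29 in DU145, 15 of 40 in PC3 and 14 of 32 for the difference did in at least 1. The line comparison gave 29 to 34 members. It shared the fewest calls with equal medians (18 higher and 7 lower), where TYMS, called lower in DU145 than in PC3, was at 0.0021. Quantile normalization left 5 members in DU145 (2252 genes in all, against 3389), and without DU145 GFP+ replicates 1 and 2 together, where the lone GFP+ library is assumed to vary like the other groups, 0 members and 170 genes passed in DU145 and 4 and 649 for the difference between lines. TYMS, CDC45 and MCM5 passed as lower under every other alternative. In PC3, 1 member passed with equal medians, 0 with each line fitted alone, 8 (2315 genes, against 1182) with the GC and length trend removed, 10 (2481) with that and the replicate block, and 0 (410) without GFP- replicates 2 and 3 together, which left 1188 genes for the difference (1990 otherwise). Deviations of same-numbered sorts correlated at -0.02 to 0.213 in DU145, within the range of different numbers (-0.229 to 0.183) except at its top. In PC3 they correlated at 0.0594 to 0.196, above all different numbers (-0.17 to 0.0434). Whether the numbers pair the libraries was thus not settled, and the main fit took them as unpaired. A replicate block gave 19 members in DU145 (4842 of all genes), 2 in PC3 (1551), 15 for the difference (3321) and 31 in the line comparison (9931). With the GC trend removed as well, it gave 16 (3266 genes) for the difference. Leaving out 1 library in turn gave 4 to 23 members (896 to 5597 genes) in DU145, 0 to 3 (660 to 1492) in PC3 and 6 to 18 (1145 to 3661) for the difference. With equal medians the split of all genes became 1313 higher and 2305 lower in DU145 (1647 and 1742), 509 and 412 in PC3 (522 and 660) and 626 and 1428 for the difference (885 and 1105). With the GC and length trend removed it was 878 and 1708 in DU145. The causes were not tested. CCNE2, at 2.66 to 19.5 CPM, had the least depth of the members.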
